A study of Mus musculus with 32 samples.

Results

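The genes described here mark the loop of Henle and the distal tubule, the parts of the nephron that follow the proximal tubule. The list was chosen by name and holds 8 of the 55806 gene IDs in the deposited count tables. It has 3 genes of the working epithelium (Umod, Kcnj1 and Calb1) and 5 transcription regulators (Irx1, Irx2, Irx3, Pou3f3 and Tfap2b). Bulk RNA-seq was performed on 32 libraries in 11 groups from embryonic mouse kidneys that express a tumor mutant of ENL, a chromatin reader encoded by Mllt1 (Enl), in 1 of the 2 main mesenchymal lineages of the kidney. Whole kidneys at E18.5 came from Six2-ENLWT (n = 2), Six2-ENLT1 (n = 2), Six2-ENLT3 (n = 2), Foxd1-ENLWT (n = 3) and Foxd1-ENLT1 (n = 3) embryos. Sorted tdTomato-positive (tdT+) cells came from the Six2 lineage at E14.5 and at E18.5 (n = 3 per genotype and stage) and from the Foxd1 lineage at E18.5 (n = 4 per genotype), each with ENLWT and ENLT1 genotypes. Total counts per library ranged from 106005614 to 157266455 in Six2 whole kidneys, from 67137194 to 79343015 in Foxd1 whole kidneys, from 76510702 to 137888792 in sorted Six2 cells, and from 2557443 to 3508381 in sorted Foxd1 cells.

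T1 is an insertion and T3 a small deletion with substitution in the YEATS domain of ENL. Every mutant embryo was heterozygous, and the mutant allele was transcribed from the endogenous Enl promoter after Cre had removed a floxed wild-type cassette. The ENLWT controls carried the Cre allele with wild-type Enl. Six2-TGC is a transgene that expresses a Cre-GFP fusion in nephron progenitors, so the nephron epithelium descends from recombined cells. Foxd1-GC is a knock-in that inactivates 1 copy of Foxd1 and acts in the stroma, so that in Foxd1-ENLT1 kidneys the nephron lineage itself was not the intended site of the mutation. The sorted cells also carried the LSL-tdT reporter. The Mllt1 RNA level cannot check the genotype labels, since both alleles are transcribed, and it changed by no more than 0.33 on the log2 scale in the 6 genotype comparisons.

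As background, Umod encodes uromodulin, the protein that the thick ascending limb secretes into urine, and Kcnj1 encodes ROMK, the apical channel that recycles potassium in the same segment and secretes it further downstream. Calb1 encodes calbindin-D28k, a calcium buffer of the distal convoluted and connecting tubules that is also made in the ureteric tree. Irx1, Irx2 and Irx3 are Iroquois homeobox factors of the intermediate part of the developing nephron. Pou3f3 (Brn1) is a POU factor required for the loop of Henle, and Tfap2b (AP-2 beta) is a factor required for the distal convoluted tubule. In an embryonic nephron the regulators appear early along the axis from glomerulus to collecting duct, and the transport genes follow as the segments mature.

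In mm10, Umod (ENSMUSG00000030963) lies at chr7:119462711-119479282 on the minus strand, Kcnj1 (ENSMUSG00000041248) at chr9:32372493-32399197 and Calb1 (ENSMUSG00000028222) at chr4:15881264-15908064, both on the plus strand. Irx1 (ENSMUSG00000060969, chr13:71957921-71963723, minus strand) and Irx2 (ENSMUSG00000001504, chr13:72628820-72634198, plus strand) are neighbors on chromosome 13. Irx3 (ENSMUSG00000031734, minus strand) lies at chr8:91798525-91802067. Pou3f3 (ENSMUSG00000045515, chr1:42695768-42703176) and Tfap2b (ENSMUSG00000025927, chr1:19208914-19238576) are both on the plus strand of chromosome 1. Of the exonic length of Umod, 19.5% is shared with Gm44588, and 4.49% of that of Irx3 is shared with Irx3os, so reads there could not be assigned to 1 gene.

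RefSeq gave the 250 bases before the transcription start of 6 members on GRCm38.p6, and those of 3 members are shown, each 5′ to 3′ in the orientation of the gene. Umod and Kcnj1 are shown because their RNA fell in the mutants, and Tfap2b because it is the other member with the same motif match. Capitals mark GTTAAT, 1 of the 4 motifs searched.
Umod, chr7:119479263-119479512, minus strand: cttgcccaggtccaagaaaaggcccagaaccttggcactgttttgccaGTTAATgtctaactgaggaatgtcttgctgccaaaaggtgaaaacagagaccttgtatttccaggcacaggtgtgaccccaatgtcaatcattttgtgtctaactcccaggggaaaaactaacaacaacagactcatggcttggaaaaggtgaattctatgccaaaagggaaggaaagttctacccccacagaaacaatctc
Kcnj1, chr9:32393735-32393984, plus strand: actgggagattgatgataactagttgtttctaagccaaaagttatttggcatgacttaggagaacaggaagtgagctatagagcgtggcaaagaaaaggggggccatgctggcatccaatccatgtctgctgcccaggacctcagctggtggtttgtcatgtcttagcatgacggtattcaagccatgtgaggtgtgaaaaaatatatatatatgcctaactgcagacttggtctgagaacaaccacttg
Tfap2b, chr1:19211804-19212053, plus strand: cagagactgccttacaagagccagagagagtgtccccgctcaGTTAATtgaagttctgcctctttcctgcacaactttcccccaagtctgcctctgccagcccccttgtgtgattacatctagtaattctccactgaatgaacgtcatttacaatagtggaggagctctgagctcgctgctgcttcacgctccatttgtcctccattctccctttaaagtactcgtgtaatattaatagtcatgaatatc
The starts of Kcnj1, Tfap2b and Irx3 that RefSeq gives are internal to the gene spans above, and that of Umod lies just inside the edge of its span. Searched on both strands, GTTAAT lies in 6.43% of 32851 promoters of this length and in those of Umod (at -202 from the start) and Tfap2b (at -208). The AP-2 motif GCCNNNGGC, present in 13.7% of promoters, lies in that of Irx2 (at -198). The Iroquois motif ACANNTGT, present in 6.31%, lies in that of Umod (at -136), and TATAAA, present in 12.4%, in none of the 6. Kcnj1, Irx3 and Pou3f3 had no match to the 4 motifs in this window.

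The order of the members in normal kidneys was read per exonic length, as RPKM computed here from the counts. In Six2-ENLWT whole kidneys, Calb1 was highest at 51.9 ± 5.39 RPKM (SD, n = 2), followed by Kcnj1 at 28.0 ± 0.339 and Umod at 22.8 ± 3.22. The regulators followed, from Pou3f3 (16.4 ± 3.30) and Tfap2b (13.1 ± 1.39) through Irx1 (9.89 ± 2.32) and Irx3 (7.48 ± 1.06) to Irx2 (5.47 ± 0.290). Within this order the ranges of 1 SD around the means overlapped for Umod and Pou3f3, Pou3f3 and Tfap2b, Tfap2b and Irx1, and Irx1 and Irx3. In sorted Six2-lineage ENLWT cells of the same stage, Irx3 led at 11.5 ± 1.12 RPKM (SD, n = 3), and Kcnj1 was lowest at 2.17 ± 0.738. Umod (5.38 ± 1.88) and Pou3f3 (5.07 ± 0.341) did not differ beyond their spread in these cells, nor did neighbors in the order from Irx1 (3.23 ± 0.249) through Irx2 (3.09 ± 0.316), Tfap2b (2.73 ± 0.431) and Calb1 (2.73 ± 0.424) to Kcnj1. In Foxd1-ENLWT whole kidneys, Irx1 stood at 29.0 ± 3.04 RPKM and Irx3 at 21.5 ± 2.95 (SD, n = 3), against the 9.89 and 7.48 of Six2-ENLWT kidneys. Tfap2b was 10.5 ± 0.621 there, close to its 13.1 in Six2-ENLWT kidneys. The libraries of the Cre lines stand in separate tables from separate runs, so Cre allele, table and run cannot be told apart in these levels.

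The first comparison asked what the ENL mutants changed in whole kidneys at E18.5 when expressed in the nephron lineage. Umod and Kcnj1 were lower with both mutants, whereas none of the 5 regulators passed the test. In CPM, read counts relative to the TMM-scaled library total, Umod stood at 56.8 and 69.4 in the ENLWT kidneys, at 15.7 and 18.3 in ENLT1 kidneys, and at 19.0 and 15.8 in ENLT3 kidneys. The mutant values did not overlap the control values, and those of T1 and T3 overlapped each other. Umod was lower by -1.89 on the log2 scale with T1 (SE 0.135, 3.72-fold, adjusted p = 0.000156) and by -1.86 with T3 (SE 0.136, 3.63-fold, adjusted p = 0.000146) in edgeR's quasi-likelihood test. Kcnj1 stood at 92.5 and 94.1 CPM in ENLWT, 47.3 and 54.8 in ENLT1, and 55.3 and 40.9 in ENLT3 kidneys. Every mutant kidney was thus well below both controls. The log2 change of Kcnj1 was -0.87 with T1 (SE 0.134, 1.83-fold, adjusted p = 0.00466) and -0.96 with T3 (SE 0.135, 1.94-fold, adjusted p = 0.00265). Leaving out replicate 1 of the ENLT1 kidneys ended the T1 call of Kcnj1 (-0.75, adjusted p = 0.0569).

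Calb1 stood at 233 and 270 CPM in ENLWT, 176 and 177 in ENLT1, and 116 and 167 in ENLT3 kidneys. All mutant kidneys were below the controls, with 1 ENLT3 kidney the lowest. The fall passed the test with T3 (log2 change -0.83, SE 0.155, 1.78-fold, adjusted p = 0.00951), and the T1 value of -0.51 (SE 0.154, adjusted p = 0.0709) did not. Without replicate 1 of the ENLT3 kidneys, Calb1 was at -0.58, which is under the 1.5-fold threshold (adjusted p = 0.0233). Calb1 is shared with the ureteric tree, and the summed CPM of the ureteric markers moved with it, from 1166 to 1356 in ENLWT to between 905 and 947 in ENLT1 and between 896 and 916 in ENLT3 kidneys. Whether the ureteric tree had a part in the Calb1 value was not tested. As in all bulk samples here, fewer cells of a type and less RNA per cell cannot be told apart.

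Thus 2 of 8 members were called lower with T1, against 4.88% of all 23931 genes tested, and 3 of 8 with T3, against 5.28%. No member was called higher, against 2.88% and 4.34% of all genes.

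None of the 5 regulators was called in the same kidneys. Pou3f3 stood at 104 and 139 CPM in ENLWT, 142 and 152 in ENLT1, and 124 and 120.0 in ENLT3 kidneys. Both ENLT1 kidneys were above the controls, and both ENLT3 kidneys lay between them. Tfap2b lay between 68.8 and 89.2 CPM in the 6 kidneys, and Irx1 between 21.3 and 30.2. Their log2 changes with T1 were 0.27 for Pou3f3 (adjusted p = 0.204), 0.01 for Tfap2b (0.983) and -0.16 for Irx1 (0.574). Irx2 went from 18.6 and 17.3 CPM in ENLWT to 13.6 and 15.4 in ENLT1 and 15.5 and 14.1 in ENLT3 kidneys, and Irx3 from 18.6 and 22.7 to 16.0 and 15.4 with T1 and 20.4 and 23.0 with T3. Both T1 groups were below the controls, at -0.31 for Irx2 (adjusted p = 0.0791) and -0.39 for Irx3 (0.0593), short of the threshold. With T3, the 5 regulators had log2 changes between -0.28 and 0.07, and none was called.

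**Figure D1:**
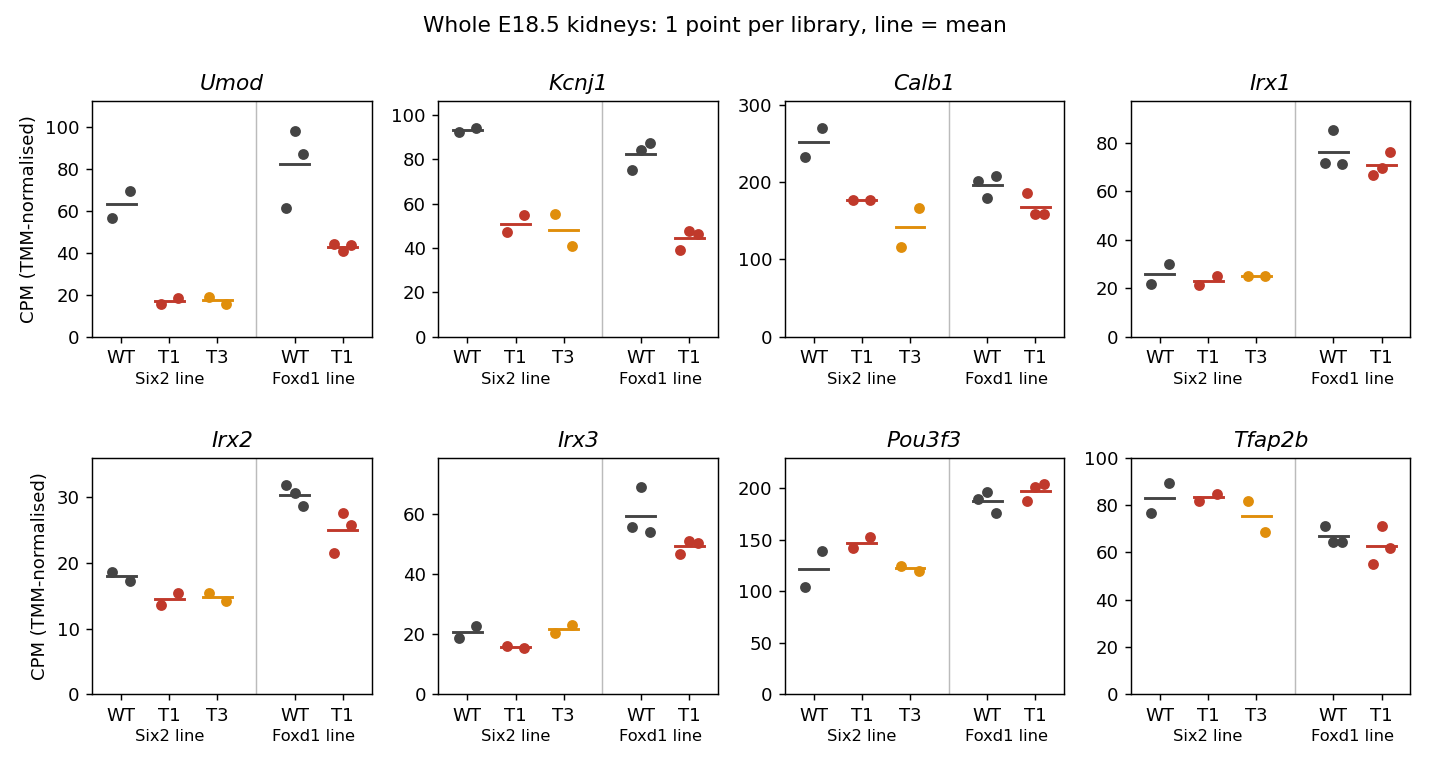
TMM-scaled CPM of the 8 genes in every E18.5 whole-kidney library (points) with group means (lines), for Six2 and Foxd1 kidneys by genotype. Umod and Kcnj1 sit lower in all mutant groups, with Umod at 15.7 to 19.0 in Six2 mutants against 56.8 and 69.4 in their controls, and no regulator was called.

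T1 and T3 were then compared directly. No member was called in the edgeR quasi-likelihood test, against 0% of all genes lower and 0.00418% higher, and none was called by DESeq2 or edgeR's exact test. The difference of T3 over T1 in Umod was 0.03 (95% interval -0.28 to 0.34), and that in Kcnj1 was -0.09 (-0.40 to 0.23). At an unadjusted p under 0.05 there was 1 member, Irx3, which was higher with T3 by 0.46 (0.20 to 0.73, unadjusted p = 0.00407, adjusted p = 0.512). For Calb1 the difference of -0.32 had an interval from -0.68 to 0.04.

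Other genes of the same segments were followed in lists. Of 11 loop transport genes, 6 were called lower with T1 and 6 with T3, and none higher, with median log2 changes of -0.59 and -0.65 against -0.01 over all genes with T1. Egf, the growth factor of the distal tubule, was at -1.41 with T1 (adjusted p = 0.000544), and Cldn19, a claudin of the thick ascending limb, at -1.07 (adjusted p = 0.000199). Of 14 genes tested for the distal convoluted and connecting tubules, 7 fell with T1 and 6 with T3. Slc12a3, the thiazide-sensitive sodium-chloride cotransporter, was at -2.13 with T1 (adjusted p = 9.31e-05), and Fxyd2, a subunit of the sodium pump, at -1.86 (adjusted p = 0.000156). Of 10 other regulators of these segments, 2 fell with T1 and 3 with T3. The lowest of them was Esrrb, a nuclear receptor of the loop and distal tubule, which fell by 2.56 on the log2 scale with T1 (adjusted p = 0.000275), from 10.7 ± 3.09 CPM (SD, n = 2) in ENLWT to 1.81 in ENLT1 kidneys, and by 2.71 with T3 (adjusted p = 0.000192). The relatives of the members outside the list (other Iroquois, POU3 and AP-2 genes, with Calb2 and Pantr1) gave 1 gene lower and 1 higher of 9 with T1. These were Tfap2c at -1.79, from 26 and 46 counts in the controls to 12 and 8 in the ENLT1 kidneys, and Calb2, the calretinin gene, at 2.52. Calb2 had 4 counts in each control and 20 and 25 in the ENLT1 kidneys. Both genes were near or under the limit of the filter in the group where they are low, so nothing is read from these calls. With T3 none was lower and 1 higher, Irx5 (0.63, adjusted p = 0.0241).

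Markers of other cell types moved in the same kidneys. All 8 proximal tubule markers fell with each mutant, and their summed CPM went from 2658 to 3031 in ENLWT to between 426 and 531 in ENLT1 kidneys. All 6 podocyte markers fell (908 to 1030 against 278 to 294 CPM with T1), and 7 of 9 macrophage markers rose (145 to 147 against 207 to 227 CPM). The part of these cells in the member values was not tested.

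To read the nephron lineage alone, tdT+ cells of the Six2 lineage were compared at E18.5. Umod, Kcnj1 and Calb1 were called lower and no member higher, 3 of 8 against 5.54% of 22685 genes lower and 6.14% higher. Umod stood at 9.68, 20.1 and 14.8 CPM in ENLWT cells and at 4.01, 3.25 and 3.14 in ENLT1 cells, without overlap. Its log2 change was -2.09 (SE 0.22, 4.25-fold, adjusted p = 1.43e-05). Kcnj1 stood at 4.57, 7.75 and 9.41 CPM in ENLWT cells and at 4.07, 2.97 and 2.62 in ENLT1 cells, where the lowest control came close to the highest mutant library. The log2 change of Kcnj1 was -1.16 (SE 0.241, 2.23-fold, adjusted p = 0.0037). Calb1 went from 11.2, 13.1 and 15.3 CPM to 6.68, 5.88 and 7.37, again with no overlap, and its log2 change was -0.99 (SE 0.137, 1.98-fold, adjusted p = 0.000159). When all 12 sorted Six2 libraries shared 1 estimate of the spread, Calb1 was no longer called (-0.99, adjusted p = 0.349).

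Among the regulators in these cells, Irx3 went from 29.5, 35.3 and 30.3 CPM in ENLWT to 27.1, 23.6 and 25.5 in ENLT1 cells. All 3 mutant libraries were below the controls, but the log2 change of -0.31 was 1.24-fold and under the fold threshold (SE 0.0925, adjusted p = 0.0289). Irx1, Irx2, Pou3f3 and Tfap2b overlapped between genotypes. Pou3f3 stood at 35.7, 40.4 and 36.5 CPM in ENLWT cells and at 53.6, 34.0 and 36.8 in ENLT1 cells, where replicate 1 was above the rest. Their log2 changes were -0.07 for Irx1 (adjusted p = 0.861), -0.15 for Irx2 (0.563), 0.15 for Pou3f3 (0.528) and -0.20 for Tfap2b (0.551).

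In the sorted E18.5 cells, 5 of 11 loop transport genes and 5 of 14 distal and connecting tubule genes fell, none rose, and the median log2 changes were -0.47 and -0.23, against 0.015 over all genes. Egf was at -1.69 (adjusted p = 9.53e-06), Fxyd2 at -1.95 (adjusted p = 6.31e-09) and Slc12a3 at -1.70 (adjusted p = 0.000141). Of 10 other segment regulators, Esrrb fell by 2.01 on the log2 scale (adjusted p = 0.0036), Lhx1, a factor of early nephron patterning, was called at -0.59, and the Notch ligand gene Jag1 rose by 0.63 (adjusted p = 0.000406). Of 8 relatives of the members, Irx4 was called lower (-2.42, adjusted p = 0.0352) and Pou3f4 higher (3.25, adjusted p = 0.0145). Irx4 had 71, 28 and 40 counts in ENLWT and 1, 21 and 5 in ENLT1 cells, and Pou3f4 had 2, 4 and 0 against 18, 14 and 31. Each passed the filter through the group where it is high, so nothing is read from these calls. Markers of cells that a Six2-lineage sort should not hold were higher in ENLT1 cells (6 of 8 stromal, 7 of 9 macrophage and 5 of 7 red cell markers were called), in summed CPM from between 277 and 508 to between 787 and 919 for stroma, from between 37.3 and 40.2 to between 98.5 and 112 for macrophages, and from between 107 and 211 to between 1553 and 2275 for red cells. The ureteric markers, which share Calb1, were at 176 to 223 CPM in ENLWT and 168 to 197 in ENLT1 cells, with 5 of 11 called lower and 2 higher. Podocyte markers went from between 2901 and 3394 to between 209 and 262 CPM (6 of 6 lower), proximal tubule markers from between 1440 and 1937 to between 460 and 503 CPM (8 of 8 lower), and nephron progenitor markers from between 447 and 584 to between 188 and 243 CPM (5 of 6 lower). RNA of other cells and expression of the stromal genes within the sorted cells cannot be told apart. The part of these markers in the member values was not tested.

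At E14.5, before most of the loop has formed, the members were low in sorted Six2 cells and none of the 7 tested was called in edgeR's quasi-likelihood test, against 2.28% of 22387 genes lower and 4.11% higher. At an unadjusted p under 0.05 there were 3 lower members, and DESeq2 and edgeR's exact test each called 2, Umod and Pou3f3. Umod stood at 0.944, 1.36 and 1.35 CPM in ENLWT cells and at 0.197, 0.0491 and 0.503 in ENLT1 cells, the latter from 28, 6 and 70 counts. The ENLT1 libraries were all below the controls and differed from each other by a larger fold than the controls did. The log2 change of Umod was -2.25 (SE 0.632, adjusted p = 0.0516), and without replicate 3 of the ENLT1 cells it was called (-3.25, adjusted p = 0.0161). Pou3f3 stood at 13.9, 6.32 and 9.29 CPM in ENLWT and at 3.93, 5.79 and 5.64 in ENLT1 cells, without overlap (log2 change -0.93, SE 0.274, adjusted p = 0.0619), and was called without replicate 2 of the ENLWT cells (-1.17, adjusted p = 0.0219). Irx3 stood at 9.21, 8.26 and 10.2 CPM in ENLWT and at 5.58, 6.42 and 7.94 in ENLT1 cells, also without overlap (log2 change -0.46, adjusted p = 0.0804), and was called without replicate 3 of the ENLT1 cells (-0.60, adjusted p = 0.0413).

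Irx1, Irx2 and Tfap2b were at most 5.23 CPM in any E14.5 library. Their log2 changes were -1.11 (adjusted p = 0.395), -1.03 (0.223) and -0.36 (0.64). Calb1 stood at 1.32, 22.4 and 25.8 CPM in ENLWT and at 7.48, 4.22 and 6.70 in ENLT1 cells. Here 1 control library lay below all mutant libraries and the others above them. Without that library, replicate 1, Calb1 was called lower (-1.96, adjusted p = 0.00232), against -1.41 with it (adjusted p = 0.314). The same library had the lowest summed CPM of ureteric markers (50.2, against 66.8 and 82.9 in the other controls and 79.5 to 91.4 in ENLT1 cells), of macrophage markers (12.9, against 31.6 and 100.2) and of red cell markers (1.01, against 39.3 and 103.9). Their part in the Calb1 value was not tested. Kcnj1 was not tested because of its low counts, which were 1, 2 and 0 in ENLWT and 0, 9 and 6 in ENLT1 cells, a ratio of 4.95 with an exact 95% counting interval from 1.4 to 26.7.

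Of the loop transport list, 1 gene was lower and 2 were higher of 9 tested at E14.5. Its summed CPM was 9.12, 10.2 and 8.03 in ENLWT cells and 15.9, 17.1 and 16.5 in ENLT1 cells. The higher genes were Cldn10, a claudin of the loop (2.21, adjusted p = 0.000698), and Ptger3, a prostaglandin receptor gene (1.52), and the lower one was the potassium channel gene Kcnj16 (-1.15). Of 10 distal and connecting tubule genes, 3 rose, among them Slc8a1 (1.65) and Klhl3 (1.08). Of 9 other segment regulators, 4 fell with none higher (median -0.42, against 0.0035 over all genes), among them the transcription factor gene Sim1 (-1.23, adjusted p = 0.0139). Of 8 stromal markers in these cells, 7 rose and 1 fell, with summed CPM from 426 to 564 in ENLWT and from 873 to 1773 in ENLT1 cells. Of 6 nephron progenitor markers, 5 fell, with summed CPM from 1655 to 1946 in ENLWT and from 846 to 1045 in ENLT1 cells. Whether the stromal RNA came from other cells or from the sorted cells themselves cannot be told apart. The part of these markers in the member values was not tested.

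**Figure D2:**
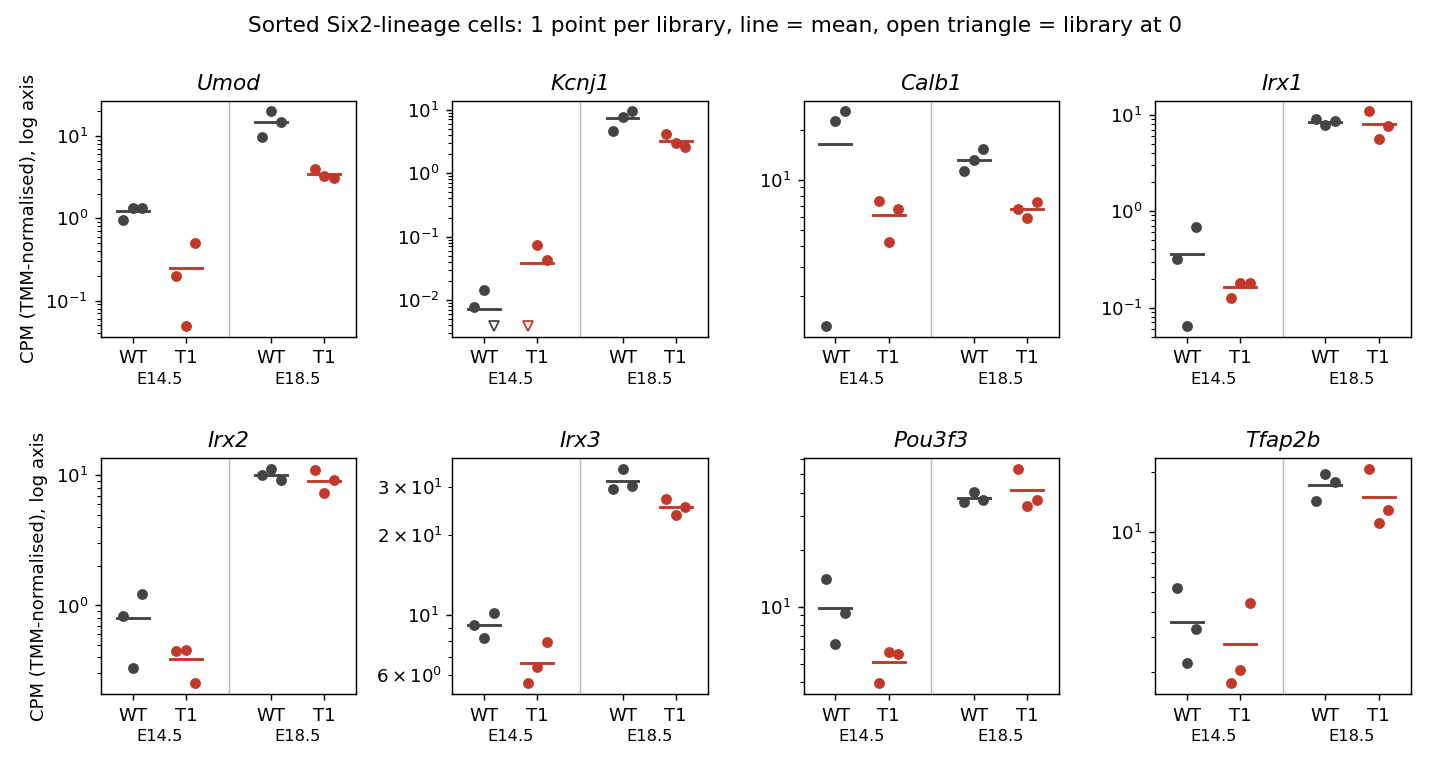
TMM-scaled CPM of the 8 genes in every sorted Six2-lineage library (points, on a log axis, open triangles for libraries at 0) with group means (lines), by stage and genotype. Umod, Kcnj1 and Calb1 sit lower in ENLT1 cells at E18.5, and at E14.5 Calb1 has 1 control library at 1.32 with the other controls at 22.4 and 25.8.

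The change from E14.5 to E18.5 was compared within each genotype, with a call requiring an adjusted p under 0.01 and a change above 2-fold. Per the study's methods, kidneys were dissociated with trypsin at E14.5 and with collagenase at E18.5. Stage and dissociation therefore cannot be told apart in these changes or in the stage interaction below. In ENLWT cells 7 of 8 members rose, against 24.8% of 25222 genes, and none fell, against 20.6%. Kcnj1 passed the filter through the E18.5 libraries, where it is high, so nothing is read from that count. Kcnj1 went from 3 counts in the E14.5 libraries together to 1634 at E18.5, a ratio of 953 with an exact 95% counting interval from 326 to 4627. Irx1 rose 23.9-fold (log2 change 4.58, adjusted p = 1.11e-06), Irx2 12.8-fold (3.67, adjusted p = 3.26e-07) and Umod 12.2-fold (3.61, adjusted p = 3.54e-06). Tfap2b rose 4.85-fold, Pou3f3 3.82-fold and Irx3, already at 8.26 to 10.2 CPM at E14.5, 3.44-fold. Calb1 was at -0.32 (adjusted p = 0.65). RLE size factors moved the median log2 change of all genes from 0.015 to 0.15 and scaling by library size alone moved it to -0.12, with the same 7 calls in each. Without replicate 3 of the E14.5 ENLWT cells the log2 change of Irx1 was 5.47.

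The lists of the same segments rose too in ENLWT cells, in 11 of 11 loop transport genes and 12 of 14 distal and connecting tubule genes, with 1 lower. Slc12a1, the sodium-potassium-chloride cotransporter of the thick ascending limb, went from 1 count at E14.5 to 25220, a ratio of 44136 with a counting interval from 7921 to 1743344. Of the 10 other regulators 6 rose and none fell, led by Esrrb (6.01, from 0, 8 and 0 counts at E14.5) and Esrrg (3.36). In ENLT1 cells 8 loop genes and 11 distal genes rose, and Esrrb rose by 3.39, from 1, 8 and 3 counts at E14.5. At E14.5 alone 9 loop genes, 10 distal genes and 9 regulators passed the filter. The others entered through the E18.5 libraries, so nothing is read from these counts.

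In ENLT1 cells the same 7 members rose, against 24.4% of genes higher and 19.8% lower. Kcnj1, with 0, 9 and 6 counts at E14.5, again passed the filter through the E18.5 libraries, so nothing is read from that count. Umod rose 13.6-fold (log2 change 3.77, adjusted p = 5.84e-06), Kcnj1 83.3-fold, Irx1 49.3-fold and Irx2 23.7-fold. Pou3f3 rose 8.1-fold and Irx3 3.82-fold. Without replicate 3 of the E14.5 ENLT1 cells the log2 change of Umod was 4.75, and that of Kcnj1, 6.38 with all libraries, was 5.77 without replicate 1 and 7.15 without replicate 2 of those cells. The E14.5 level of Umod was 0.0491 to 0.503 CPM in ENLT1 cells, against 0.944 to 1.36 in ENLWT cells.

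Whether the genotype effect differed between stages was tested as an interaction, for which an adjusted p under 0.05 was required. No member was called in edgeR's quasi-likelihood test, against 4.22% of genes lower and 3.94% higher. At an unadjusted p under 0.05 there were 2 members, and DESeq2 called 1 (Kcnj1, -3.53, adjusted p = 0.00579). Kcnj1 had an interaction of -3.33 (SE 1.11, adjusted p = 0.0877) and Pou3f3 of 1.09 (SE 0.34, 95% interval 0.36 to 1.82, adjusted p = 0.0685). At E14.5 Kcnj1 had 1, 2 and 0 counts in ENLWT and 0, 9 and 6 in ENLT1 cells, too few to size its interaction. Nothing is read from its calls under other settings. The Umod interaction was 0.16 (adjusted p = 0.926), and that of Irx3 was 0.15 (adjusted p = 0.7). The comparison was sensitive to single libraries. Kcnj1 was called without replicate 1 of the E14.5 ENLT1 cells (-3.93, adjusted p = 0.0156), Pou3f3 (1.32, adjusted p = 0.015) and Irx2 (1.27, adjusted p = 0.0431) without replicate 2 of the E14.5 ENLWT cells, and Calb1 (0.98, adjusted p = 0.048) without replicate 1 of those cells. Of the transport lists, Cldn10 (-2.68) and Ptger3 (-1.69) were among 3 loop genes with a negative interaction, and Kcnj10, a basolateral potassium channel gene of the distal tubule, was at -4.63. Kcnj10 had 0, 1 and 0 counts in the E14.5 ENLWT cells, too few to size its interaction. Jag1 (1.06) and Dll1 (1.01), both Notch ligand genes, were 2 of 3 regulators with a positive interaction.

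In Foxd1 whole kidneys the mutant was directed to the stroma, and the question was whether the nephron genes changed nonetheless. Umod stood at 61.5, 98.2 and 86.9 CPM in Foxd1-ENLWT and at 44.2, 40.9 and 43.9 in Foxd1-ENLT1 kidneys. Kcnj1 stood at 75.4, 84.4 and 87.5 CPM in controls and at 39.2, 47.7 and 46.4 in mutants. For both genes all mutant kidneys were below all controls. Umod was lower by -0.94 on the log2 scale (SE 0.122, 1.91-fold, adjusted p = 7.68e-05), and Kcnj1 by -0.89 (SE 0.0772, 1.85-fold, adjusted p = 2.04e-06). These were the 2 of 8 members called lower, against 7.53% of 20145 genes, and none was called higher, against 2.65%.

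Further members passed the adjusted p but not the 1.5-fold threshold in Foxd1 kidneys. These were Calb1 (1.17-fold, adjusted p = 0.0302), Irx2 (1.21-fold, adjusted p = 0.0205) and Irx3 (1.21-fold, adjusted p = 0.0226), all lower. Irx3 stood at 55.6, 68.8 and 53.8 CPM in controls and at 46.5, 51.0 and 50.3 in mutants, and Irx2 at 31.8, 30.7 and 28.7 against 21.6, 27.7 and 25.8, in each case without overlap. Calb1 stood at 202, 179 and 207 CPM against 186, 158 and 158, with 1 mutant kidney above the lowest control. Pou3f3 (0.08, adjusted p = 0.333), Irx1 (-0.11, adjusted p = 0.301) and Tfap2b (-0.09, adjusted p = 0.415) overlapped between genotypes.

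Of 11 loop transport genes, 7 fell in Foxd1-ENLT1 kidneys and none rose (median -0.73, against -0.0034 over all genes), led by Ptger3 (-1.82, adjusted p = 1.42e-07) and including the chloride channel subunit gene Bsnd (-0.99). Of 14 distal and connecting tubule genes 7 fell, with Slc12a3 at -1.87 (adjusted p = 2.37e-06) and the calcium channel gene Trpv5 at -1.86, and Klk1, the kallikrein gene, rose (0.67). Of 10 other regulators 1 fell, Esrrb at -3.17 (adjusted p = 2.44e-08), from 15.8 to 1.74 CPM, and the median was -0.04. None of 7 relatives of the members was called. Proximal tubule markers fell in 7 of 8 genes, from between 2935 and 3093 to between 1329 and 1729 summed CPM. No podocyte marker was called, 4 of 6 progenitor markers rose (278 to 295 against 421 to 528 CPM), and ureteric markers went from between 1249 and 1442 to between 902 and 961 CPM. Their part in the member values was not tested.

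The size of the T1 effect was compared between the Cre lines as an interaction in whole kidneys. Umod was the 1 member called, 1 of 8 against 4.82% of genes higher, and none was called lower, against 3.55%. Its fall was smaller in Foxd1 than in Six2 kidneys by 0.95 on the log2 scale (SE 0.219, 95% interval 0.47 to 1.42, adjusted p = 0.0173). This call was lost without replicate 1 of the Six2-ENLT1 kidneys (0.83, adjusted p = 0.0782) and without replicate 2 of the Six2-ENLWT kidneys (0.76, adjusted p = 0.0652). For Kcnj1 the difference was -0.04, with an interval from -0.32 to 0.25 (adjusted p = 0.912), and for Calb1 it was 0.27 (adjusted p = 0.245). Leaving out replicate 1 of the Six2-ENLWT kidneys gave a call for Calb1 (0.40, adjusted p = 0.044), and leaving out replicate 2 gave one for Pou3f3 (-0.47, adjusted p = 0.014). In the lists, Fxyd2 (0.90) and Cldn10 (0.47) had a positive interaction, and Ptger3 (-1.63), Cldn16 (-0.81), Klhl3 (-0.61), Wnk4 (-0.56) and Irx5 (-0.83) a negative one.

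**Figure D3:**
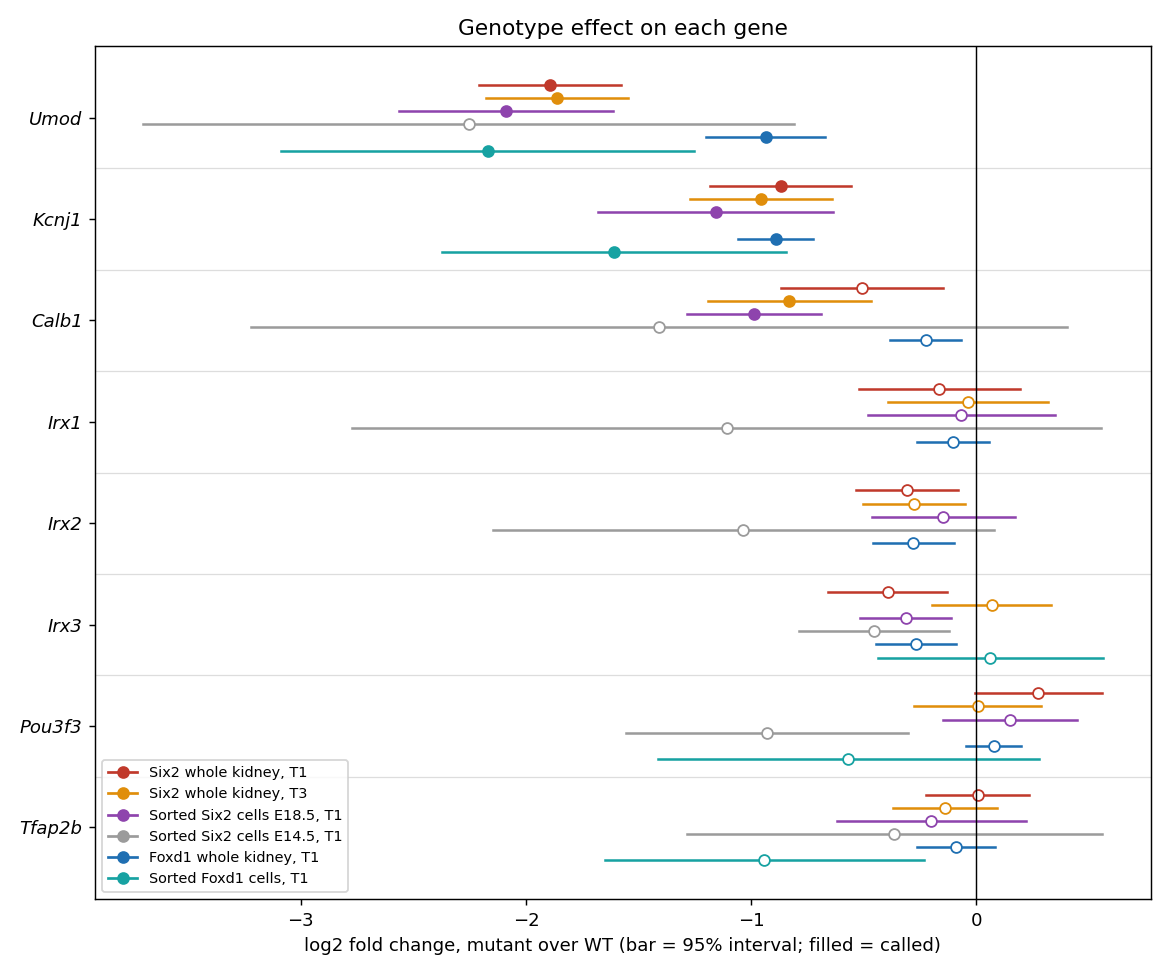
Log2 fold change of mutant over ENLWT with its 95% interval (points and lines) for each of the 8 genes in the genotype comparisons, with filled points for called values. Umod and Kcnj1 lie left of 0 in the E18.5 comparisons of whole kidneys and sorted Six2 cells, while Irx1, Pou3f3 and Tfap2b lie near 0 in whole kidneys. Nothing is read from the Umod and Kcnj1 points of sorted Foxd1 cells, where both passed the filter through the ENLWT libraries.

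Foxd1-lineage cells were sorted as stroma, a cell type of which loop genes are not a feature. The summed CPM of stromal markers was 6109 to 8764 in ENLWT and 6819 to 7802 in ENLT1 cells. The members were present at a few counts per library, and 5 of 8 passed the filter on low counts. Umod had 30, 17, 9 and 18 counts in ENLWT libraries and 8, 2, 1 and 4 in ENLT1 libraries, which is 8.41, 5.01, 3.66 and 6.56 against 2.98, 0.671, 0.363 and 1.30 CPM. Kcnj1 had 34, 27, 12 and 13 counts in ENLWT and 6, 7, 2 and 11 in ENLT1 libraries. No ENLT1 library reached the lowest control in either gene. Umod was lower by -2.17 on the log2 scale (SE 0.435, 4.5-fold, adjusted p = 0.00254) and Kcnj1 by -1.61 (SE 0.363, 3.05-fold, adjusted p = 0.00644). These were 2 of 5 tested members, beside a background of 2.18% of 12717 genes lower and 3.63% higher. Umod was under the minimum count of 10 in all ENLT1 libraries and Kcnj1 in 3 of 4, so both passed the filter through the ENLWT libraries, where they are high, and nothing is read from that count. Leaving out replicate 1 of the ENLT1 cells moved Umod to -2.86. Without replicate 1 or replicate 2 of the ENLWT cells, Umod no longer passed the filter and had no test.

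The other tested members in Foxd1 cells were Irx3 (0.06, adjusted p = 0.913), Pou3f3 (-0.57, adjusted p = 0.426) and Tfap2b (-0.94, SE 0.337, adjusted p = 0.0866). Tfap2b stood at 10.4, 6.19, 4.47 and 4.38 CPM in ENLWT and at 4.10, 4.70, 2.54 and 2.28 in ENLT1 cells, with overlap. Calb1, Irx1 and Irx2 did not pass the filter, with at most 46 counts in a library. Proximal tubule markers moved in these cells as well, at 328, 207, 123 and 126 summed CPM in ENLWT against 65.4 to 106 in ENLT1 cells, and 4 of 7 tested fell. Of 9 macrophage markers 6 rose, with summed CPM from 106 to 267 in ENLWT and from 268 to 366 in ENLT1 cells, and their part in the member values was not tested. Of 6 loop transport genes tested, Cldn10 (-1.06, adjusted p = 0.022) and Slc12a1 (-1.05, adjusted p = 0.0483) fell, and of 9 distal and connecting tubule genes, Fxyd2 (-0.92, adjusted p = 0.0265). The summed loop transport list stood at 120.8, 90.5, 60.2 and 44.9 CPM against 54.0, 31.9, 31.2 and 56.4. Tubule RNA from other cells and transcripts of the stroma itself cannot be told apart in these libraries.

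In ENLWT cells at E18.5, 7 of 8 members were called lower in the Foxd1 than in the Six2 lineage, where the background was 38% of 14869 genes lower and 34.7% higher. Calb1, Irx1 and Irx2 did not pass the filter in the Foxd1 cells and entered through the Six2 cells, so nothing is read from that count. Of the 5 members that passed in both lineages, 4 were lower. The lineages were sequenced at different depth and tabulated separately, so lineage and run cannot be told apart. Pou3f3 was 7.15-fold lower (adjusted p = 8.84e-10), Irx3 3.71-fold (adjusted p = 3.74e-10) and Tfap2b 2.29-fold (adjusted p = 0.000344). Irx1 had 8, 11, 0 and 3 counts and Irx2 7, 4, 1 and 2 counts in the Foxd1-ENLWT libraries, too few for a fold. Umod was 2.14-fold lower (adjusted p = 0.00145), and Kcnj1 differed by 0.15 on the log2 scale (adjusted p = 0.652). The difference of Calb1 (-0.88, adjusted p = 0.0248) was -1.64 without replicate 1 of the Foxd1-ENLWT cells, and its call was lost without replicate 2 (adjusted p = 0.138) or 3 (0.103) of the Foxd1-ENLWT cells, without replicate 3 of the Six2-ENLWT cells (0.0606) and in DESeq2 (0.0714). Of 8 other segment regulators, 6 were lower and none higher in the Foxd1 lineage, among them Dll1 and Sim1. Dll1 had 9, 5, 9 and 6 counts and Sim1 10, 11, 3 and 5 counts in the Foxd1-ENLWT libraries, too few for a fold. Both entered through the Six2 cells, where they are high, so nothing is read from the count of regulators. All 8 stromal markers were higher in the Foxd1 lineage. All 8 endothelial markers and 8 of 9 macrophage markers were called higher as well, with none lower. Their part in the member values was not tested.

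Whether the T1 effect differed between the sorted lineages was tested as an interaction. No member was called in edgeR's quasi-likelihood test, against 7.63% of genes lower and 8.25% higher, none had an unadjusted p under 0.05, and DESeq2 called none. The difference in Umod was -0.13 with an interval from -1.40 to 1.13, and in Kcnj1 -0.48 with an interval from -1.56 to 0.59, so effects that differ by more than 2-fold lie within these intervals.

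The level of each working gene was also set against the regulators of the same library, as its RPKM divided by the summed RPKM of the 5 regulators. This ratio was chosen after the values were seen and is given without a test. For Umod it was 0.439 and 0.434 in Six2-ENLWT kidneys, 0.113 and 0.123 in Six2-ENLT1 kidneys, and 0.134 and 0.116 in Six2-ENLT3 kidneys. In Foxd1 kidneys it was 0.237 to 0.353 in ENLWT and 0.161 to 0.193 in ENLT1. In sorted Six2 cells at E18.5 it went from between 0.144 and 0.262 to between 0.0519 and 0.061. The Umod ratio of every mutant library in these 3 sets was below that of every control of the same set. The Kcnj1 ratio behaved in the same way, at 0.241 to 0.294 against 0.142 to 0.156 in Foxd1 kidneys and at 0.0566 to 0.114 against 0.0359 to 0.0463 in sorted Six2 cells. The Calb1 ratio overlapped between genotypes in Foxd1 kidneys, at 0.357 to 0.479 against 0.354 to 0.465. It did not overlap in Six2 kidneys, at 0.963 to 1.03 in ENLWT against 0.4655 to 0.727 in the mutants, nor in sorted Six2 cells at E18.5, at 0.0954 to 0.128 against 0.0496 to 0.0693.

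**Figure D4:**
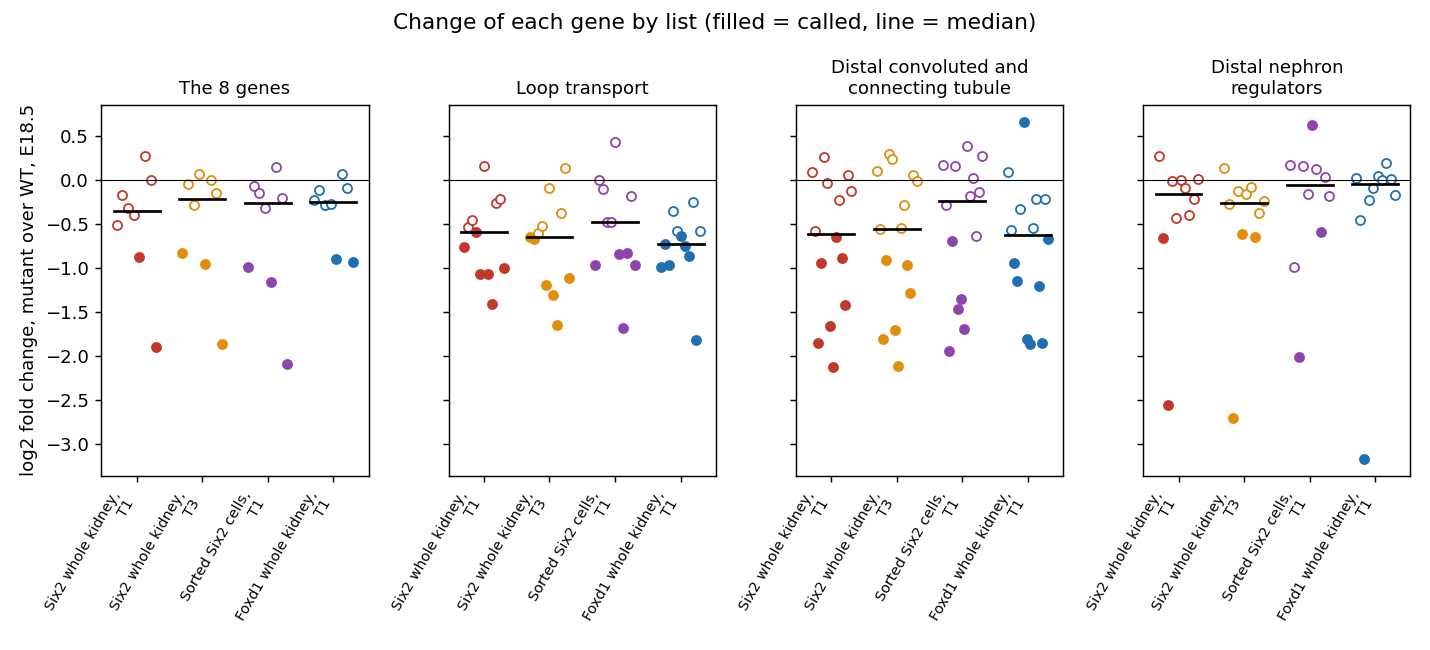
Log2 fold change of each tested gene (points) with the list median (line) for the 8 genes, the loop transport list, the distal and connecting tubule list and the list of other segment regulators, in 4 genotype comparisons at E18.5, with filled points for called genes. In Six2 kidneys with T1 the medians are -0.59 and -0.61 for the transport lists and -0.15 for the regulators, where Esrrb is the outlying point at -2.56.

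Across the 12 sorted Six2 libraries the members other than Calb1 varied together. The 5 regulators correlated with each other at Pearson's r from 0.931 to 0.989 on log2 CPM, and Kcnj1 with them at 0.912 to 0.95. Umod had r from 0.823 to 0.918 with the regulators and 0.793 with Kcnj1. Calb1 stood apart, with r from 0.0382 to 0.384 with the other members. These values describe libraries that share 2 stages and 2 genotypes, and stage goes with the mode of dissociation. The comparisons between stages above bear on the same libraries. By the same measure over 25222 genes, the gene most like Irx2 was Ptgs2 (r = 0.992), and that most like Irx1 was Gm48961 (0.991). Irx3 was nearest to Cys1, Arap2 and Col4a1 (each 0.995), Tfap2b to Gm25945 (0.983), Umod to Elf4 (0.967) and Kcnj1 to Diaph2 (0.995). The nearest gene to Calb1 was Isoc2b, at only 0.822.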

How the data were processed

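RNA was sequenced from whole kidneys (stranded mRNA libraries) and from sorted tdT+ cells (SMART-Seq v4). Per the study's methods, the authors aligned reads to mm10 with HISAT2, keeping 1 alignment per read, and counted them per gene with HTSeq without strand, so a gene and an antisense partner cannot be told apart. The deposited unit is raw counts per gene, in separate tables for each experiment. The annotation release was not given in the sources used here. The authors' own comparisons, made with edgeR, were not used.

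Here the counts were filtered (filterByExpr, minimum count 10, minimum total 15), scaled by TMM and fitted with edgeR 4.0.16 (glmQLFit and glmQLFTest, R 4.3.3), with Benjamini-Hochberg adjustment over all genes tested. Genotype effects were fitted within each table, over all genotypes of that table and stage. A call required an adjusted p under 0.05 and a fold above 1.5, or for stages under 0.01 and above 2, and for interactions an adjusted p under 0.05 alone. Stage, lineage and Cre line comparisons were fitted over the libraries of both arms. CPM used TMM-scaled library sizes. RPKM divided them by exonic length (GENCODE, GRCm38), in which 55536 of 55806 IDs had a symbol and 270 did not. Counting intervals are exact, at 95%, and cover counting error only. The scripts were tested on simulated data.

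The labels do not say that replicates are separate animals, so the p-values measure the spread between these samples, which may be technical. No pair of libraries of a group agreed within sampling noise (chi-square per degree of freedom at least 1.36). The members and lists were chosen with earlier results of these data known. All 8 members were named, and of each other list the 2 called genes with the largest log2 change in each direction, except that some items are not reported here. Alternatives were DESeq2 1.42.0, edgeR's exact test, other scalings, no filter, no fold threshold, other sample sets, a replicate block and leaving out each replicate.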

Additional observations from a re-analysis of the deposited data

Results flagged for a closer look

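Calb1 in sorted Foxd1-ENLT1 cells stood at 5.70 CPM in replicate 2, from 17 counts, against 1.12, 1.45 and 1.30 CPM in the other 3 libraries, and this gap was 0.927 of the range of the group. It was the 1 value past the limit of Dixon's test among 16 sets of values, the 8 members in both groups of sorted Foxd1 cells, at a level at which chance alone marks some sets. Groups of fewer than 4 libraries, which are all the others, were not tested. Calb1 did not pass the filter in these cells, and no call rests on the value.

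The T1 effect on Umod differed between whole kidneys of the Cre lines, with an interaction of 0.95 on the log2 scale, the smaller fall being in Foxd1 kidneys. All 3 Foxd1-ENLT1 and both Six2-ENLT1 kidneys were below their own controls. The libraries of the Cre lines were tabulated separately, so Cre line and table cannot be told apart.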

How the results depend on the processing

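Over 9 comparisons the 34 called member values were refitted 566 times under the alternatives, of which 557 gave the same call, 9 lost it and 0 changed direction. The 34 include Umod and Kcnj1 in sorted Foxd1 cells, Kcnj1 between stages in ENLWT and in ENLT1 cells, and Calb1, Irx1 and Irx2 between lineages. These passed the filter through 1 side of the comparison only. The counts of called members that moved by more than 1.5 times are given here. In Foxd1 kidneys 5 were lower without the fold threshold, in sorted Foxd1 cells 4 without the filter, in E14.5 cells 2 with DESeq2, with the exact test, with the 12-library fit and without the filter and 1 with the replicate block, and in the stage interaction 1 was lower with DESeq2 and, without the filter, 1 lower and 1 higher.

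Leaving out 1 replicate at a time, the count lower ranged from 2 to 3 for T3 in Six2 kidneys, from 6 to 7 between lineages, from 1 to 2 for T1 in Six2 kidneys, 1 to 2 in sorted Foxd1 cells and 0 to 2 at E14.5; that of the stage interaction from 0 to 1 (0 to 2 higher) and that of the Cre line interaction from 0 to 1 (0 to 2 higher). Uncalled values that changed sign had these lowest and highest values: with T1 in Six2 kidneys Irx1 -0.38 to 0.12 and Tfap2b -0.10 to 0.14; with T3 Irx1 -0.26 to 0.24, Irx3 -0.0671 to 0.24 and Pou3f3 -0.18 to 0.25; for T3 over T1 Irx2 -0.0714 to 0.12, Kcnj1 -0.32 to 0.11 and Umod -0.10 to 0.15. In sorted cells they were Irx3 -0.0943 to 0.25 (Foxd1), Tfap2b -0.89 to 0.0183 (E14.5), and Irx1 -0.34 to 0.14 and Pou3f3 -0.0773 to 0.27 (E18.5). Between stages Calb1 ranged from -0.10 to 0.27 in ENLT1 and from -0.87 to 0.15 in ENLWT cells, and the stage interaction of Calb1 from -0.0405 to 0.98, of Tfap2b from -0.21 to 0.70 and of Umod from -0.30 to 1.15. Kcnj1 ranged from -0.12 to 0.37 between lineages. The lineage interaction ranged from -1.32 to 0.38 for Calb1, -0.0858 to 0.77 for Irx1, -0.37 to 0.58 for Irx2 and -0.88 to 0.14 for Umod, and the Cre line interaction from -0.25 to 0.30 for Irx1, -0.0765 to 0.11 for Irx2, -0.0749 to 0.28 for Irx3, -0.14 to 0.0759 for Kcnj1, -0.47 to 0.0118 for Pou3f3 and -0.26 to 0.0249 for Tfap2b.

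With scaling by library size alone the sign changed for Irx1 with T3 in Six2 kidneys (0.0354), Irx1 in sorted E18.5 cells (0.0274) and the Cre line interactions of Irx1 (-0.0000) and Irx2 (-0.0307), and without the filter for Kcnj1 between lineages (-0.19). The cause was not tested.

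The deviations of same-numbered replicates from their group means had correlations from -0.0791 to 0.139 between groups. In groups of 2 libraries the deviations mirror each other, so the values for replicates 1 and 2 are the same there. These correlations cannot show whether same-numbered replicates share a litter or a batch. With the replicate block, Umod at E14.5 was called (-2.56, adjusted p = 0.0461), and no called value was lost.

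Over all genes, T3 over T1 gave 0 lower and 1 higher in edgeR's quasi-likelihood test, against 93 and 207 without the filter, 19 and 69 with the exact test, 17 and 50 with DESeq2 and 8 and 6 in the fit of these genotypes alone. The Cre line interaction gave 810 lower and 1100 higher, against 1475 and 1655 without the filter and 1049 and 1825 with DESeq2. The share of lower calls was 51.7% in the stage interaction, against 41.0% with library size alone and 62.7% without the filter, and 48.1% in the lineage interaction, against 62.4% with library size alone. Between lineages the median log2 difference of all genes was -0.10, against -0.61 without the filter and 0.28 with DESeq2. Depth limits most the sorted Foxd1 cells, where 3 members could not be tested.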
